A study of Mus musculus with 23 samples.

Results

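Peroxiredoxins are thiol peroxidases that reduce hydrogen peroxide and organic peroxides through a reactive cysteine, and thioredoxins are the small disulfide reductases that return most of them to the reduced state with electrons that thioredoxin reductase takes from NADPH. The family is divided by compartment: Prdx1 and Prdx2 work mainly in the cytosol, Prdx3 in mitochondria, Prdx4 in the endoplasmic reticulum, Prdx5 in mitochondria, peroxisomes and cytosol, and Prdx6 is a 1-Cys enzyme that uses glutathione in place of thioredoxin. Txn1 is the cytosolic thioredoxin and Txn2 the mitochondrial one. Prdx2 is also known as one of the most abundant proteins of the red blood cell, where it scavenges peroxide beside catalase and glutathione peroxidase.

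The 8 genes were taken by symbol (Prdx1, Prdx2, Prdx3, Prdx4, Prdx5, Prdx6, Txn1 and Txn2) from the 17644 genes with a TPM value (transcripts-per-million) and joined to the count table by gene identifier. All 8 passed the low-count filter (a count of 10 or more in 5 or more mice), which left 14364 genes for testing. In GRCm38.p6 the peroxiredoxin genes span chr4:116685599-116700000 (Prdx1), chr8:84969622-84974811 (Prdx2), chr19:60864066-60874538 (Prdx3), chrX:155323918-155342272 (Prdx4), chr19:6906697-6910106 (Prdx5) and chr1:161240112-161251210 (Prdx6). The thioredoxin genes span chr4:57943373-57956411 (Txn1) and chr15:77915051-77928994 (Txn2).

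RNA-seq was done on marrow-depleted femur and tibia of 23 female C57BL6/N mice aged 11 weeks, 1 library per mouse. WT Control (n = 5) and Sarm1-KO Control (KO Control, n = 6) mice had received saline. WT T1D (n = 6) and Sarm1-KO T1D (KO T1D, n = 6) mice had received streptozotocin and had been diabetic for 3 weeks. Streptozotocin, a toxin of the insulin-producing beta cells, was given at 100 mg/kg by intraperitoneal injection. The injection was repeated the next day, and once more if blood glucose had not risen enough. SARM1 is an NAD-consuming enzyme best known for driving axon degeneration, and its knockout here was present in every tissue. Some of the WT mice in the study were bought in and were not littermates of the KO mice, so genotype and origin may be partly mixed.

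The libraries held 16938101 to 20135592 assigned counts. Sarm1 RNA was low in all mice and did not separate the genotypes. In Control mice it was 0.845 to 1.76 counts-per-million (CPM) in WT and 0.268 to 1.57 CPM in the libraries labelled KO (edgeR adjusted p = 0.999), and in T1D mice the order was opposite, with 0.340 to 1.21 CPM in WT and 0.811 to 1.46 CPM in KO (edgeR adjusted p = 0.281). Between the genotypes edgeR did call 4 other genes in both Control and T1D, Ccdc92b, Tlcd2, Vtn and Xaf1, which were picked out after their values were seen. Tlcd2 was near the threshold (edgeR adjusted p = 0.0466 in Control and 0.0489 in T1D). Without the low-count filter edgeR called 3 genes in Control in place of 4. By quantitative PCR the study itself reports Sarm1 in bone as low but significantly reduced in KO relative to WT. KO below is used as the label gives it. Osteoblast and osteocyte markers were present in every group, Bglap at a mean of 24495 TPM in WT Control, and neutrophil and erythroid markers were abundant as well, S100a8 at 13088 TPM and Hba-a1 at 144879 TPM. WT T1D mice A3905 and A3906 stood apart. Their osteoblast and osteocyte list level, the mean log2(CPM + 0.5) of 12 markers, was 7.25 and 7.11, below the 8.89 to 9.52 of the other 4 WT T1D mice, and their erythroid level over 15 markers was 10.7 and 10.9, the highest of all mice. Mouse identifiers fell into an A17 series (1 WT Control and 3 WT T1D mice) and an A36-A39 series (all others). Values without A3905 and A3906 are given beside the results that they moved most.

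The promoter windows of the pair of members that differed with T1D are shown to place them in the genome, with 250 bases before and 50 bases after the RefSeq start site on the gene's own strand (GRCm38.p6). Capitals mark a KLF-type CACCC box. Prdx2 lies on chr8:84969372-84969671 (+) and Prdx3 on chr19:60874489-60874788 (-).
Prdx2: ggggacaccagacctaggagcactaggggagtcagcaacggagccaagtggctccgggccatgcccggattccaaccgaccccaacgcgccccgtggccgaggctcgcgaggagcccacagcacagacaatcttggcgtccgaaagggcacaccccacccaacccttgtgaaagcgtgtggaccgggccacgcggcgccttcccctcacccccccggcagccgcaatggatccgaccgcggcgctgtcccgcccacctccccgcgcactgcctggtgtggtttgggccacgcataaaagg
Prdx3: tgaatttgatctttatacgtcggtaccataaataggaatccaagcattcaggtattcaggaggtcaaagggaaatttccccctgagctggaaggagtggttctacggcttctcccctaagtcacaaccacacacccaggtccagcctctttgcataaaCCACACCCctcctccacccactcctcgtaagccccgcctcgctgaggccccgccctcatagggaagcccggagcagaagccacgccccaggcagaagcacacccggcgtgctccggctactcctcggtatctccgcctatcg

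Windows were found for 7 of the 8 genes (all but Prdx6), and 3 motifs were searched on both strands: the antioxidant response element core TGACNNNGC, the GATA site AGATAA and the CACCC box CCACACCC. The box in Prdx3, 92 to 85 bases before the start site, was a motif that 3.56% of the 32851 windows of the same length held. Prdx1 held an antioxidant response element core 133 to 125 bases before its start, which 12.4% of all windows did. No GATA site, present in 11.2% of all windows, was found in the 7 windows, and the windows of Prdx2, Prdx4, Prdx5, Txn1 and Txn2 matched none of the 3 letter strings. The Prdx2 window had the highest share of G and C among the 7, at 68.7%. These matches describe letters only.

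By TPM, which is scaled to transcript length and so can be compared between genes, the cytosolic and red cell enzyme Prdx2 and the broadly targeted Prdx5 were the most abundant members. Mean TPM over the 23 mice was 498 for Prdx2 and 467 for Prdx5, which placed them at ranks 184 and 194 of 17644 genes. The pair was not separated: Prdx2 was the higher in 17 of 23 mice, and their ranges of 357 to 656 TPM and 386 to 593 TPM overlapped. After a gap in which the values did not overlap came Txn1 (138 TPM), Prdx1 (127 TPM) and Txn2 (122 TPM), whose ranges overlapped and whose order held in 17 and 16 of 23 mice. Prdx3 (76.8 TPM), which lay below Txn2 in all 23 mice, was followed by Prdx6 (64.2 TPM), with Prdx3 the higher in 20 of 23 mice. Prdx4, the enzyme of the secretory pathway, was lowest at 36.7 TPM and lay below Prdx6 in all 23 mice.

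**Figure D1:**
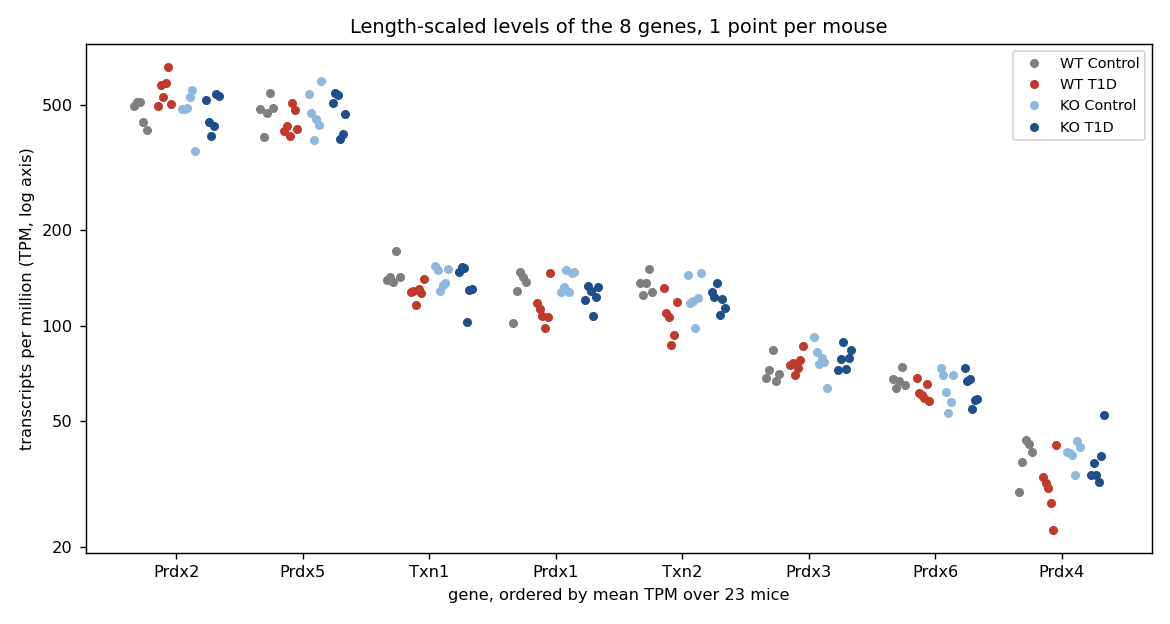
TPM on a log axis of the 8 genes in each of the 23 mice, ordered by mean TPM, with colours for the 4 groups. Prdx2 and Prdx5 lie near 500 TPM in all groups, well above Txn1, Prdx1 and Txn2 near 130 TPM, and Prdx4 is lowest at 22.7 to 52.2 TPM.

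The summed TPM of the 8 genes differed between groups by less than the spread among mice. In WT it was 1542 ± 70.3 (SD, 5 mice) without and 1519 ± 74.9 (6 mice) with T1D, and in KO it was 1550 ± 69.3 (6 mice) without and 1512 ± 113 (6 mice) with T1D. Its composition was less even. Prdx2 made up 30.8% ± 3.15 of the sum in WT Control and 36.7% ± 2.64 in WT T1D, against 31.2% ± 4.79 in KO Control and 31.5% ± 3.88 in KO T1D. The WT ranges still touched, at 27.0% to 34.5% in Control and 33.2% to 40.3% in T1D. Txn2 was 8.75% ± 0.321 of the sum in WT Control and 7.13% ± 1.31 in WT T1D.

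The first comparison asked what 3 weeks of T1D did to these genes in WT bone. Prdx2 and Prdx3 rose, by 1.46-fold and 1.30-fold, and the other 6 members did not pass the test (edgeR quasi-likelihood test over all 23 mice, Benjamini-Hochberg adjusted p under 0.05). In the same comparison 2.33% of all 14364 genes were called. Over the 8 members the median log2 fold change was 0.14, with 6 higher and 2 lower, beside a median of -0.01 over all genes tested. Erythroid markers were also higher in WT T1D and osteoblast markers lower (values below), and in such bulk samples fewer cells of a type and less RNA per cell cannot be told apart.

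Prdx2 was 387, 424, 451, 462 and 512 CPM in the 5 WT Control mice. In the 6 WT T1D mice it ran from 497 to 852 CPM with a median of 627 CPM, and 5 of the 6 lay above every control. The 2 highest were A3906 at 852 CPM and A3905 at 788 CPM, and A3909 fell inside the control range. The fitted log2 fold change was 0.54 ± 0.15 (SE; 95% confidence interval 0.24 to 0.85) with an edgeR adjusted p of 0.0499, at the threshold itself. The call was kept in 5 of 23 fits that each left out 1 mouse, and adjusted p reached 0.141. Those 5 were the fits without WT Control A1757, WT T1D A1764, A1758 or A3909, or KO Control A3766. Without A3905 and A3906 the log2 fold change was 0.34 (edgeR adjusted p = 0.371). Within the A36-A39 mice, with 4 controls and 3 T1D mice (A3905, A3906 and A3909), it was 0.74 (edgeR adjusted p = 0.0175). As that subset holds A3905 and A3906, its value is not independent of them. The A17 series held 1 control and gave no value of its own.

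Prdx3, the main peroxidase of mitochondria, was 63.4, 65.2, 65.3, 70.05 and 73.7 CPM in WT Control. In WT T1D it ran from 78.0 to 100.4 CPM with a median of 84.1 CPM. All 6 T1D mice lay above all 5 controls, as was so in either direction for 2.19% of all genes tested. The log2 fold change was 0.37 ± 0.09 (95% confidence interval 0.19 to 0.56, edgeR adjusted p = 0.0440). A3905 and A3906 were again highest, at 98.1 and 100.4 CPM. Without them the log2 fold change was 0.27 (edgeR adjusted p = 0.309). In the A36-A39 mice, whose T1D mice were A3905, A3906 and A3909, it was 0.51 (edgeR adjusted p = 0.0124). The call was kept in 9 of 23 fits that left out 1 mouse (WT Control A1757, WT T1D A1764, A1758 or A3909, KO Control A3672 or A3766, and KO T1D A3674, A3682 or A3683), and the highest adjusted p was 0.121.

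**Figure D2:**
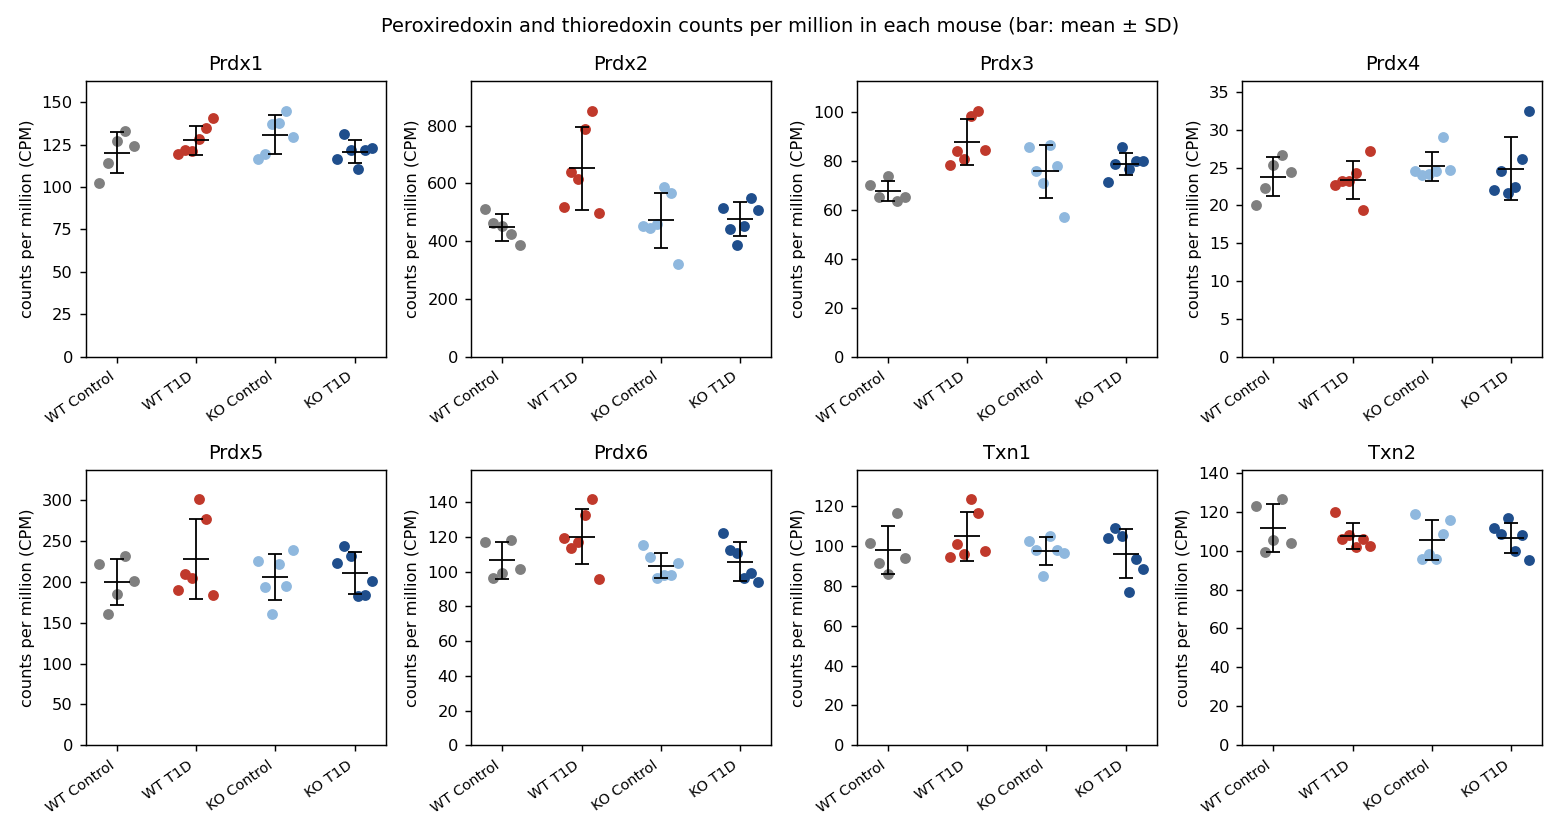
CPM of the 8 genes in each mouse, with 1 panel per gene, 1 point per mouse and a bar for the mean ± SD of each group, on axes that start at 0. WT T1D has the highest mean for Prdx2 (651 CPM), Prdx3 (87.6 CPM), Prdx5, Prdx6 and Txn1. Its values overlap those of both KO groups for all 8 genes. Only for Prdx3 do WT Control and WT T1D not overlap.

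The remaining cytosolic and secretory peroxiredoxins differed little between WT Control and WT T1D. Prdx1 was 120 ± 12.1 CPM in Control and 128 ± 8.52 CPM in T1D, a log2 fold change of 0.09 (95% confidence interval -0.06 to 0.24, edgeR adjusted p = 0.509). Prdx4 was 23.8 ± 2.60 and 23.3 ± 2.53 CPM, a log2 fold change of -0.03 (-0.24 to 0.19, edgeR adjusted p = 0.910). Prdx5 was 200.1 ± 28.5 and 228 ± 49.0 CPM, a log2 fold change of 0.19 (-0.08 to 0.46, edgeR adjusted p = 0.411), and its highest values were again those of A3905 (301 CPM) and A3906 (277 CPM). Without this pair of mice the Prdx5 log2 fold change was -0.02. Prdx6 was 106 ± 10.4 and 120.1 ± 15.9 CPM, a log2 fold change of 0.17 (-0.01 to 0.36, edgeR adjusted p = 0.266).

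The thioredoxins themselves did not pass the test. Txn1 was 98.0 ± 11.9 CPM in WT Control and 105 ± 12.2 CPM in WT T1D, a log2 fold change of 0.10 (95% confidence interval -0.10 to 0.29, edgeR adjusted p = 0.575). Txn2 was 112 ± 12.2 CPM and 107 ± 6.56 CPM, a log2 fold change of -0.05 (-0.21 to 0.11, edgeR adjusted p = 0.726). These intervals do not reach the size fitted for Prdx2.

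The WT differences of the members were lower on the TPM scale. Hemoglobin took 16.7% ± 3.70 of counts in WT T1D against 10.8% ± 1.75 in WT Control, and its part in the difference between the scales was not tested. On log2(TPM + 1) the median of all genes tested was -0.24 in WT T1D against WT Control. On that scale Prdx2 differed by 0.23 (limma adjusted p = 0.0946) and Prdx3 by 0.08 (limma adjusted p = 0.452), which is 0.47 and 0.32 above the median gene. The differences of Prdx1, Prdx5, Prdx6 and Txn1 turned negative there, at -0.20, -0.11, -0.12 and -0.19, none past the threshold. Txn2 was called lower, at -0.33 (limma adjusted p = 0.0238), which is -0.09 relative to the median gene. On this scale 5081 of all 14364 genes tested were called lower.

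In the libraries labelled KO none of the 8 members was called with T1D by edgeR or DESeq2, and none had an unadjusted p under 0.05 in edgeR. No gene at all was called in that comparison (0.0%). The median log2 fold change over the members was 0.01, with a range of -0.11 to 0.06. Prdx2 ran from 322 to 586 CPM with a median of 455 CPM in KO Control, and from 386 to 548 CPM with a median of 479 CPM in KO T1D. Every KO T1D mouse lay inside the KO Control range for Prdx2. Its log2 fold change was 0.01 (95% confidence interval -0.28 to 0.30, edgeR adjusted p = 1.00). Prdx3 was 75.5 ± 10.9 CPM in KO Control and 78.6 ± 4.67 CPM in KO T1D, a log2 fold change of 0.06 (-0.12 to 0.23, edgeR adjusted p = 1.00).

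**Figure D3:**
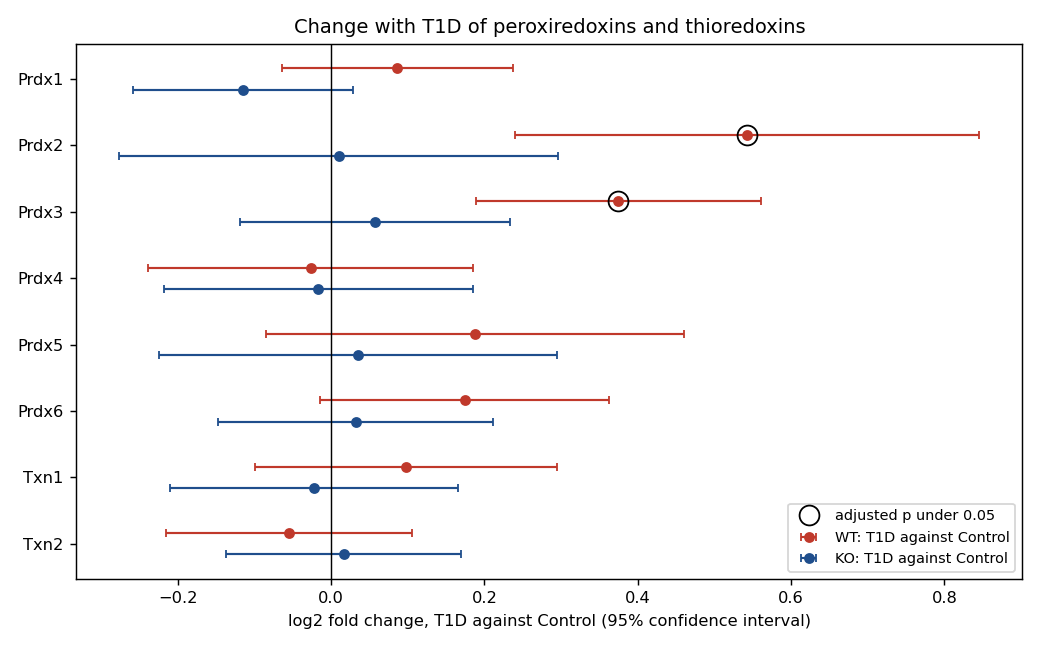
Fitted log2 fold change of T1D against Control with its 95% confidence interval for the 8 genes, in red for WT and in blue for KO, with a ring around genes with adjusted p under 0.05. Prdx2 at 0.54 and Prdx3 at 0.37 in WT carry rings, and in KO all 8 values lie between -0.11 and 0.06 with intervals that cross 0.

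Whether the response to T1D differed between the genotypes was tested directly as an interaction. No member was called by edgeR or DESeq2, as no gene was by edgeR (0.0%). Prdx2 had an interaction of -0.53 on the log2 scale (95% confidence interval -0.95 to -0.12, unadjusted p = 0.0143 and edgeR adjusted p = 0.479), and Prdx3 one of -0.32 (-0.57 to -0.06, unadjusted p = 0.0172 and edgeR adjusted p = 0.479). These were the 2 members with an unadjusted p under 0.05, beside 10.2% of all genes tested. A T1D difference that passed in WT and not in KO was thus not shown to differ between the genotypes after adjustment.

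Between the genotypes, no member differed among Control mice by edgeR or DESeq2, with no unadjusted edgeR p under 0.05 (0.0278% of all genes were called). The largest log2 difference was that of Prdx3, at 0.16 (95% confidence interval -0.02 to 0.35, edgeR adjusted p = 0.999). Among T1D mice, KO against WT, edgeR again called none of the 8 (0.0905% of all genes), with 2 under an unadjusted p of 0.05, beside 17.1% of all genes tested. On this scale 7 of the 8 values were below 0, but on log2(TPM + 1), where the median of all genes was 0.17, 6 of these 7 were above 0 (all but Prdx2). Prdx2 had the largest log2 difference, at -0.46 (-0.74 to -0.17, edgeR adjusted p = 0.145). It passed in DESeq2 (adjusted p = 0.0495) and in the A36-A39 mice (-0.60, edgeR adjusted p = 0.0331), whose WT T1D mice were A3905, A3906 and A3909. Without A3905 and A3906 the Prdx2 difference was -0.26 (edgeR adjusted p = 0.778). The contrasts of T1D and of genotype share the WT T1D mice. Prdx6 was the other member under an unadjusted p of 0.05, with a log2 difference of -0.18 (-0.36 to -0.003, edgeR adjusted p = 0.285).

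The rest of the system was covered by 23 partner genes, all of which passed the low-count filter. In WT, 1 of the 23 was called with T1D and rose, none fell (2.33% of all genes were called), and 6 had an unadjusted p under 0.05, beside 22.2% of all genes. In KO, none was called by edgeR (0.0% of all genes) and 2 had an unadjusted p under 0.05, beside 3.15% of all genes. The median log2 fold change over the partners was 0.11 in WT and -0.005 in KO. On log2(TPM + 1), where the median of all genes in WT was -0.24, Txnip was not called. There 7 partners were called lower by limma, beside 5081 of all 14364 genes tested. These partners were Glrx3, Map3k5, Msrb3, Nxn, Sesn1, Txnrd1 and Txnrd3, at -0.24 to -0.72.

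Txnip, the thioredoxin-interacting protein, binds reduced thioredoxin and blocks it, and its gene is known to be induced by glucose. It was 267, 273, 307, 320.2 and 353 CPM in WT Control, and 331 to 608 CPM in WT T1D. There 4 of the 6 T1D mice lay above every control, with A3905 (556 CPM) and A3906 (608 CPM) highest. Its log2 fold change was 0.57 ± 0.12 (SE), with an edgeR adjusted p of 0.0367. The call was kept in 17 of 23 fits that left out 1 mouse and was lost without WT Control A3767, A3903, A3904 or A3907 or without WT T1D A3905 or A3906. Without both of the latter the log2 fold change was 0.35 (edgeR adjusted p = 0.286), and on log2(TPM + 1) the difference was 0.25 (limma adjusted p = 0.0638). In KO, Txnip was 313 CPM in Control and 385 CPM in T1D, a log2 fold change of 0.30 (unadjusted p = 0.0169, edgeR adjusted p = 1.00), and all 6 T1D mice lay above all 6 controls, a lack of overlap that 0.258% of all genes tested had in either direction. The interaction for Txnip was -0.27 on the log2 scale (edgeR adjusted p = 0.561).

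Of the thioredoxin reductases, which reduce thioredoxin with NADPH, the cytosolic Txnrd1 was level at 57.7 CPM in WT Control and 58.0 CPM in WT T1D (log2 fold change 0.01, edgeR adjusted p = 0.941). The mitochondrial Txnrd2 was 42.8 and 56.7 CPM, with 4 of 6 T1D mice above every control, and did not pass (0.41, edgeR adjusted p = 0.0702, and 0.32 without A3905 and A3906). Txnrd3 was under 6 CPM on average in every group. Sulfiredoxin (Srxn1), which repairs overoxidized peroxiredoxins, was 18.5 CPM in WT Control and 18.9 CPM in WT T1D (0.03, edgeR adjusted p = 0.906). The sestrins Sesn1, Sesn2 and Sesn3 had log2 fold changes of 0.03, 0.16 and -0.32 in WT, none past the threshold, and of 0.02, 0.008 and 0.03 without A3905 and A3906.

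**Figure D4:**
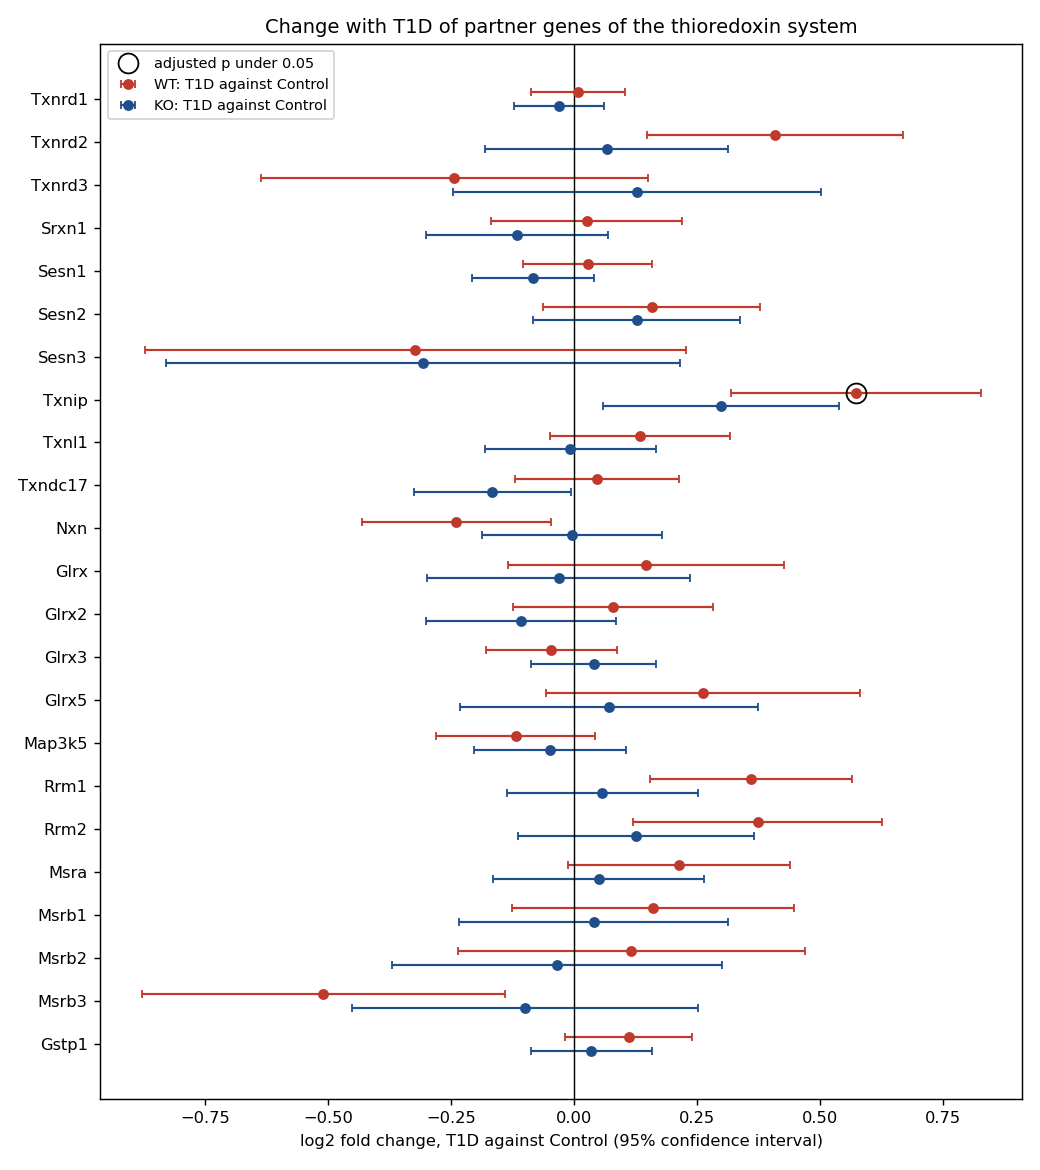
Fitted log2 fold change of T1D against Control with its 95% confidence interval for the 23 partner genes, in red for WT and in blue for KO. Txnip in WT, at 0.57, carries the only ring (adjusted p under 0.05), and Txnrd2, Rrm1 and Rrm2 in WT lie between 0.36 and 0.41 without one.

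Ribonucleotide reductase, which draws on thioredoxin or glutaredoxin to make DNA precursors, was close to the threshold in WT. Its large subunit Rrm1 was 213 CPM in Control and 273 CPM in T1D with no overlap between the groups, as for 2.19% of all genes (log2 fold change 0.36, edgeR adjusted p = 0.0524). Without A3905 and A3906 the Rrm1 value was 0.22 (edgeR adjusted p = 0.386), and with the erythroid marker level as a covariate it was 0.02. The small subunit Rrm2 was 241 and 313 CPM (0.37, edgeR adjusted p = 0.0837), and its value was 0.20 without the pair. The methionine sulfoxide reductases, which thioredoxin also serves, were split: Msra, Msrb1 and Msrb2 had positive log2 fold changes of 0.21, 0.16 and 0.12, and Msrb3 a negative one of -0.51 (edgeR adjusted p = 0.0994). Without A3905 and A3906 these 4 values were 0.008, -0.03, -0.04 and -0.29. The glutaredoxins Glrx, Glrx2, Glrx3 and Glrx5 ranged from -0.05 to 0.26. Nucleoredoxin (Nxn), a thioredoxin-like protein, had a log2 fold change of -0.24 (edgeR adjusted p = 0.131, and -0.13 without the pair), and the related Txnl1 and Txndc17 had values of 0.13 and 0.05. Gstp1 (0.11) and the thioredoxin-bound kinase Map3k5 (-0.12) did not pass.

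The bone libraries mix cell types. Of 7 marker lists, 4 differed between WT Control and WT T1D by an exact two-sided permutation test with Benjamini-Hochberg adjustment over the 7. The erythroid level was 9.84 ± 0.21 in WT Control and 10.4 ± 0.29 in WT T1D (exact adjusted p = 0.0455), with 4 of 6 T1D mice above every control. All 15 erythroid markers had a higher mean TPM in WT T1D, none was at 0, and their summed TPM ran from 287605 to 370894 in Control and from 335458 to 472227 in T1D. The osteoblast and osteocyte level was 9.64 ± 0.30 and 8.55 ± 1.09 (exact adjusted p = 0.0455), all 12 markers having a lower mean TPM, with sums of 36996 to 76199 TPM in Control and 1700 to 49360 TPM in T1D. The plasma cell level was lower by -0.20 (exact adjusted p = 0.0455), with all 5 markers lower in mean TPM, and the adipocyte level higher by 0.92 (exact adjusted p = 0.0303). Of the 4 adipocyte markers tested, 3 had a higher mean TPM in WT T1D and 1 a lower one (Adipoq, 84.15 TPM in Control and 81.86 TPM in T1D). Plin1 (1.60 and 2.58 TPM) and Cidec (1.45 and 4.61 TPM) were low in both groups. Without A3905 and A3906 none of the 7 lists was called: the differences were then 0.42 (erythroid), -0.40 (osteoblast and osteocyte), -0.22 (plasma cell) and 0.50 (adipocyte), with exact adjusted p values of 0.111, 0.167, 0.111 and 0.111. With fewer T1D mice the smallest p that the exact test can give is also larger. On log2(TPM + 1) the adipocyte list was not called (exact adjusted p = 0.0682). The part of the osteoblast, plasma cell and adipocyte lists in the Prdx2 and Prdx3 differences was not tested. None of the 7 lists was called in KO, with an erythroid level of 9.95 ± 0.32 in Control and 10.02 ± 0.13 in T1D.

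Each member was set against each marker list over the 23 mice (56 pairs, 100000 permutations, Benjamini-Hochberg over the pairs). By Pearson's r, 17 pairs were called, and 9 of these were also called by Spearman's rho. How many of all tested genes go with the lists as closely was not tested, so these counts are not shown to be particular to the members. Prdx2 followed the erythroid level most closely, with r = 0.96 (permutation p = 1e-05, the smallest the draws can give, adjusted p = 0.000187) and Spearman's rho = 0.91 (same p values). Without the 2 mice farthest from the median level r was 0.93, without A3905 and A3906 it was 0.92, within the A36-A39 mice 0.96, and with the group means taken away 0.93. Prdx3 had a looser relation to the same list, with r = 0.80 (permutation adjusted p = 0.000224) and rho = 0.58 (permutation adjusted p = 0.0260), 0.64 without the 2 farthest mice and 0.66 with group means taken away. On the log2(TPM + 1) scale r was 0.89 for Prdx2 and 0.25 for Prdx3.

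Prdx5 and Txn1 went with the neutrophil list instead. For Prdx5 r was 0.89 and rho 0.86 (permutation adjusted p = 0.000187 for both), with r = 0.78 without A3905 and A3906, which were also the 2 farthest mice. For Txn1 r was 0.84 and rho 0.86 (permutation adjusted p = 0.000187 for both), with r = 0.76 without that pair. Prdx6 was called against the same list, with r = 0.79 and rho = 0.66 (permutation adjusted p = 0.00024 and 0.0122) and r = 0.62 without the pair. The neutrophil level itself was 10.4 ± 0.17 in WT Control and 10.6 ± 0.36 in WT T1D (exact adjusted p = 0.406). Prdx1, Prdx4 and Txn2 had no called relation to any of the 7 lists on the CPM scale. On log2(TPM + 1) r was 0.67 for Prdx1 and 0.78 for Prdx4 with the osteoblast and osteocyte list. For Txn2 with the erythroid list it was -0.74. The adjusted p of these pairs on that scale is not given here. The links were not specific to 1 list. Prdx2 was also called against the osteoblast and osteocyte level, with r = -0.80 (permutation adjusted p = 0.000224) and rho = -0.61 (permutation adjusted p = 0.0152), and r = -0.58 without A3905 and A3906. Prdx3, Prdx5, Prdx6 and Txn1 were called against that list too, with r of -0.71, -0.67, -0.76 and -0.64. Without the pair these were -0.53, -0.21, -0.56 and -0.38, and none was called. On log2(TPM + 1) they were -0.02, -0.07, 0.10 and 0.24. Prdx5 was not called against that list by rho (-0.42, permutation adjusted p = 0.185). For Prdx3 the rho with the osteoblast and osteocyte list, -0.63, was as large in size as that with the erythroid list. Prdx2 and Prdx3 were called by r against the adipocyte list (0.72 and 0.70), but not by rho.

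**Figure D5:**
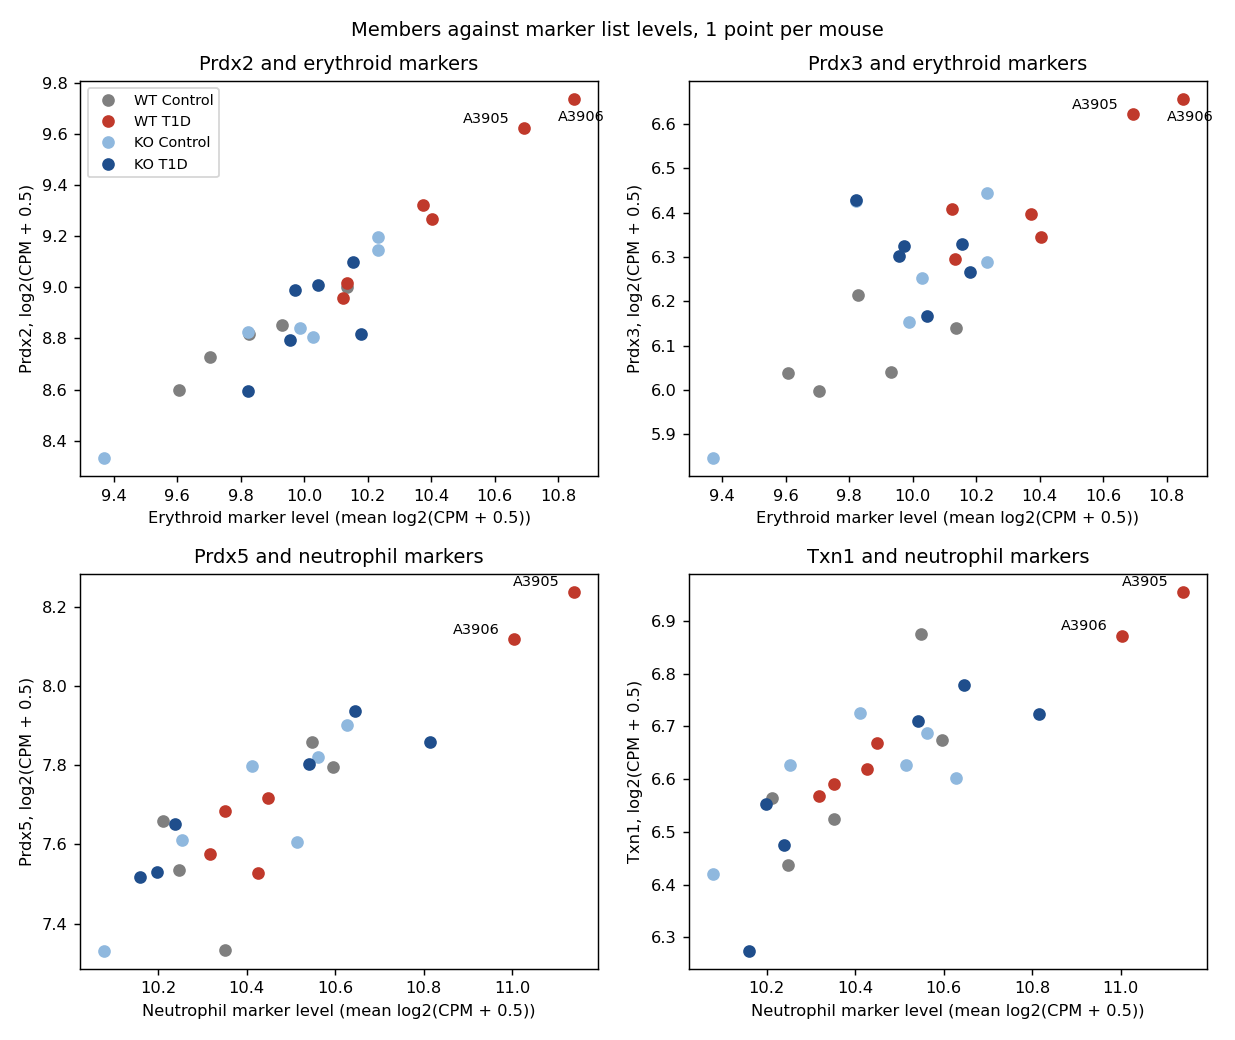
Log2(CPM + 0.5) of Prdx2 and Prdx3 against the erythroid marker level, and of Prdx5 and Txn1 against the neutrophil marker level, 1 point per mouse and colours for the 4 groups. Prdx2 lies closest to a line (r = 0.96), Prdx3 spreads more (r = 0.80), and WT T1D mice A3905 and A3906 lie at the upper right of each panel.

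With the erythroid level as a covariate in the edgeR fit, the WT T1D log2 fold change was -0.03 for Prdx2 (adjusted p = 1.00), 0.14 for Prdx3 (adjusted p = 1.00) and 0.32 for Txnip (adjusted p = 1.00), and no gene was called. Since the erythroid level itself differed between WT Control and WT T1D, that fit cannot separate a T1D difference from a difference in erythroid RNA. With hemoglobin genes removed before scaling, the Prdx2 log2 fold change was 0.55 (edgeR adjusted p = 0.0517) and that of Prdx3 0.38 (edgeR adjusted p = 0.0454).

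The tested genes with the highest Pearson r to each member over the 23 mice differed between the members. Among the genes most like Prdx2 were Tspan33 (r = 0.97) and Ubac1 (r = 0.97), and these values were 0.94 and 0.95 without A3905 and A3906. Prdx3 was nearest to Car2 (0.87), Chac2 (0.86) and Pcna (0.86). Prdx5 was nearest to Msrb1 (0.88), Camp (0.88) and Arrb2 (0.88), and Txn1 to Camp (0.89), Spi1 (0.87) and Max (0.86), Camp being a gene of the neutrophil list and Msrb1 one of the partners. Prdx6 was nearest to R3hdm4 (0.88), Scnn1a (0.88) and Napsa (0.87). The highest values were lower for Prdx1, with Emc2 (0.82), Selenof (0.73) and Arf2 (0.72), for Prdx4, with Extl2 (0.82), Mrpl54 (0.79) and Mtmr10 (0.75), and for Txn2, with Syngr2 (0.78), Ywhaz (0.76) and Banf1 (0.75). As the top values of all tested genes these are high by choice, and no test was made on them.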

How the data were processed

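Bone RNA was read as poly(A) libraries. The authors cleaned reads, aligned them to GRCm38.p6 with HISAT and Bowtie2 and deposited RSEM expected counts, rounded to whole numbers, and TPM values per gene; tool versions are not given in the sources used here. Counts were tested with edgeR 4.0.16 (TMM, 1 mean per group, quasi-likelihood test, library sizes over tested genes) in R 4.3.3, with adjusted p under 0.05 over 14364 genes. CPM used the same TMM library sizes. DESeq2 1.42.0 and limma 3.58.1 on log2(TPM + 1) and log2(TPM + 0.1), and the other alternatives in the closing section, were also run. Scripts were tested on simulated data. Marker levels were compared with exact permutation tests (scipy 1.17.1).

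Named genes were the 8 members, 23 partners of the system, Sarm1 and the 3 tested genes most like each member, of which 1 is not reported here. Members and lists were chosen with earlier results of these data known. Of other entries with a peroxiredoxin or thioredoxin symbol, only Prdx6b was found, with 1 count over all mice. Depth was 16938101 to 20135592 counts, and the lowest member, Prdx4, had 335 to 663 counts per library. Groups came from the labels, and no pair of libraries within a group agreed within sampling noise. Protein sequences were not used here.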

Additional observations from a re-analysis of the deposited data

Results flagged for a closer look

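Among 60 groups of 4 to 6 mice (member CPM and marker levels), 3 held a mouse set apart from the rest of its group by Dixon's test, about as many as chance flags (1 in 20). Prdx4 in KO Control mouse A3673 was 29.0 CPM, with the next mouse at 24.6 CPM. Txn2 in WT T1D mouse A1764 was 119.9 CPM, with the next at 108 CPM. The B cell marker level of KO T1D mouse A3675 was 6.29, with the next at 5.86.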

How the results depend on the processing

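No member was called in KO or for the interaction under any of the alternatives run, and the WT calls were the ones that moved. Against the 2 members called in WT, 1 was called with RLE scaling, with library sizes over all gene entries (chosen after seeing the data) and with hemoglobin genes removed (Prdx3 each time), 1 on log2(TPM + 1) or log2(TPM + 0.1) (Txn2, lower, with neither Prdx2 nor Prdx3), and 0 without the low-count filter, without A3905 and A3906 or with the erythroid covariate (0 to 2 with 1 mouse left out). Of all genes, 334 were called in WT, against 1002 in DESeq2, 88 without the filter, 5164 and 5019 on the TPM scales, 2211 in the A36-A39 mice, and 0 without A3905 and A3906 or with the covariate (0 to 1262 with 1 mouse left out). For KO against WT in T1D, 1 member was called in DESeq2 and in the A36-A39 mice, and the 13 genes called became 239 in DESeq2, 5 with RLE, 3 without the filter, 744 and 84 on the TPM scales, 1540 in the A36-A39 mice and 4 without A3905 and A3906 or with the covariate (3 to 95 with 1 mouse left out). The interaction had 2 called genes on both TPM scales. Of 4 marker lists called in WT, 0 were in the A36-A39 mice and without A3905 and A3906 (0 to 4 with 1 mouse left out). With 4 WT Control and 3 WT T1D mice in the A36-A39 series, A3905 and A3906 among them, the exact test could not reach the threshold whatever the values. The differences there were 0.79 (erythroid), -1.81 (osteoblast and osteocyte), -0.20 (plasma cell) and 1.34 (adipocyte). Leaving out A3905 and A3906 also raised the smallest p that the exact test can give. Of 17 pairs of member and list, 6 were called without A3905 and A3906. The cause of the other changes was not tested.

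The values below changed sign. Before the change, the difference of Prdx2 in WT, a called gene, was 0.54 and that of the B cell level in WT was -0.51, neither close to 0. The pairs of member and list at the end were all called, among them Prdx6 (r = -0.76) and Txn1 (r = -0.64) with the osteoblast list. The values after the change follow. On both TPM scales these were, in WT, -0.20 (Prdx1), -0.11 (Prdx5), -0.12 (Prdx6) and -0.19 (Txn1). In KO they were -0.020 (Prdx2), -0.013 (Prdx5), -0.017 (Prdx6) and -0.028 (Txn2). For KO against WT in T1D they were 0.12 (Prdx1), 0.049 (Prdx3), 0.099 (Prdx5), 0.025 (Prdx6), 0.071 (Txn1) and 0.19 (Txn2), and for the interaction 0.039 (Prdx1), 0.095 and 0.096 (Prdx5), 0.10 (Prdx6) and 0.11 (Txn1). In the A36-A39 mice they were 0.0034 (Prdx6) and 0.016 (Txn1) for KO against WT in Control and 0.030 (Txn2) in T1D. With the covariate they were -0.035 (Prdx2), 0.068 (Prdx4) and 0.041 (Txn2) in WT, -0.041 (Prdx2) in KO, -0.040 (Prdx2) and 0.0083 (Prdx3) for KO against WT in Control and T1D, and -0.074 (Prdx4) and -0.011 (Txn2) for the interaction. Without A3905 and A3906 they were 0.017 (Prdx4), -0.022 (Prdx5) and -0.013 (Txn1) in WT, 0.095 (Prdx5) for KO against WT in T1D, and -0.038 (Prdx4) and 0.053 (Prdx5) for the interaction. The marker differences became -0.0049 (neutrophil) and 0.34 (B cell) in WT without A3905 and A3906, and -0.060 and -0.024 for neutrophils in WT and KO on log2(TPM + 1). On that scale r became 0.10, 0.14 and -0.24 for Prdx6 with the osteoblast, plasma cell and adipocyte lists, and 0.24 and 0.076 for Txn1 with the osteoblast and B cell lists. Without A3905 and A3906 it became 0.015 and -0.017 for Prdx6 with the B cell and adipocyte lists.

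With 1 mouse left out, these ranges crossed 0. For WT, Prdx4 ran from -0.081 to 0.031. For KO the ranges were -0.085 to 0.077 (Prdx2), -0.017 to 0.096 (Prdx3), -0.12 to 0.028 (Prdx4), -0.034 to 0.076 (Prdx5), -0.014 to 0.065 (Prdx6), -0.066 to 0.028 (Txn1) and -0.016 to 0.053 (Txn2). For KO against WT they were -0.00013 to 0.16 (Prdx2), -0.028 to 0.099 (Prdx5) and -0.048 to 0.060 (Txn1) in Control, and -0.012 to 0.14 (Prdx4) and -0.039 to 0.0089 (Txn2) in T1D. The interaction of Prdx4 ran from -0.089 to 0.065. In KO the list differences ran from -0.039 to 0.13 (erythroid), -0.0039 to 0.12 (osteoblast) and -0.051 to 0.080 (neutrophil). In all, 1610 values kept their direction and side of the threshold or moved little, 98 moved, 118 changed sign, 106 lost and 4 gained a call. No paired analysis was possible because the labels give the groups no shared replicate numbers. Each member had at least 335 counts in every library, and precision rests on the 5 or 6 mice a group.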
